A study of Mus musculus with 16 samples.

Results

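The interaction between antigen duration and dendritic cell activation was examined in AND T cells, CD4+ T cells with a transgenic receptor for a moth cytochrome c peptide. It is a difference of differences, formed from 4 groups chosen by title, which hold 11 of the 16 arrays of the series. For each gene the persistent minus transient difference with anti-CD40 was taken, and the persistent minus transient difference with PBS was subtracted from it. A negative value means that persistent antigen stood less far above transient antigen with anti-CD40 than with PBS, and a positive value the opposite.

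The groups were persistent antigen with anti-CD40 (long dox, FGK, 3 arrays), transient antigen with anti-CD40 (short dox, FGK, 2 arrays, replicates 1 and 2), persistent antigen with PBS (long dox, PBS, 3 arrays) and transient antigen with PBS (short dox, PBS, 3 arrays). All recipients of these groups carried both the Ii-rTA and the TIM transgene on the B10.BR background, were given doxycycline, and received T cells from donors with the AND receptor genes and the CD90.1 marker. Animals were 6 to 8 weeks old, and CD4+CD90.1+ cells were flow sorted from lymph nodes 60 h after transfer. Doxycycline was begun the day before transfer, and it ended on the day of transfer for transient antigen and was kept up for persistent antigen. The antibody or PBS was injected the day before transfer. Doxycycline switched the peptide on, so duration of the drug and duration of antigen cannot be told apart. The FGK45.5 antibody stimulates CD40 on the recipients' cells, so the T cells met it through the animals that held them. The labels do not say whether replicates are different animals. The p-values here reflect how far these samples spread, and that spread may be technical.

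CD40 is a receptor on dendritic cells and B cells. Its engagement, normally by CD40 ligand on helper T cells, makes a dendritic cell display more costimulatory ligands and cytokines. T cells depend on both the length of receptor engagement and such costimulation when they enter division and acquire effector functions, so an interaction term asks whether the gene response to one depends on the other. Cells that begin to divide first transcribe genes for licensing and copying DNA, under E2F factors, and later those for the mitotic spindle.

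Intensities on these arrays came from total RNA after amplification in 2 rounds. Per array the median intensity over probe sets ranged from 18.2 to 21.2 in the 11 arrays. Replicate 2 arrays had mean intensities of 88.8 to 101, and the arrays of replicates 1 and 3 had 111 to 121. Each replicate number of these 4 groups also formed a run of consecutive array numbers. All values below are log2(intensity + 1), and a difference of 1 is a doubling. Since replicate 3 lacks transient antigen with anti-CD40, any shift between replicate numbers enters the difference of differences unless the number is a term in the model. Results are therefore given for the limma fit without a block and for the fit with the replicate number as a block, each over 18193 genes. Values within replicate 1 or 2 are the same difference of differences from the 4 arrays of that number.

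Without the block 628 of 18193 genes had an unadjusted p under 0.05 in limma, fewer than evenly spread p-values would give. There limma called 0 genes at an adjusted p under 0.05, with a smallest adjusted p of 0.39. With the replicate block it called 326 genes, 1.79% of those tested. Of these 276 were negative (1.52%) and 50 positive (0.275%). The median standard error of a gene was 0.34 without the block and 0.25 with it. All 326 had the same sign in the fit without the block. There 184 of the 276 negative and 36 of the 50 positive genes had an unadjusted p under 0.05, beside 628 of 18193 genes in all. Both fits share their arrays and the genes were picked by the blocked fit, so this overlap adds no support to the calls. With the replicate number as a random effect in place of a fixed block the count was 46, all of them among the 326. It was 125 from replicates 1 and 2 alone and 890 with array weights, both with the fixed block. The number of calls moved with single arrays too. Without transient anti-CD40 replicate 1 the blocked count was 31, without persistent PBS replicate 3 it was 37, and without persistent anti-CD40 replicate 1 it was 48. It was 137 without persistent PBS replicate 1, 148, 171 and 217 without transient PBS replicates 3, 2 and 1, and 214 without persistent anti-CD40 replicate 3. In each of these refits all 326 genes kept their sign, which adds no support either, since the refits share arrays with the fit that picked them.

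The group that stood apart was the one with transient antigen and PBS. Among the 276 negative genes its mean was the lowest of the 4 group means for 274, and among the 50 positive genes it was the highest for 50. All 3 arrays of transient antigen with PBS lay below all 8 other arrays for 203 of the 276 negative genes, against a background of 3.97% over all genes. They lay above all 8 others for 37 of the 50 positive genes, against 4.08%. These counts were formed after values were seen, on the same arrays that gave the calls, and add no support to them. For the negative genes the median persistent minus transient difference was 0.05 with anti-CD40 and 1.55 with PBS. For the positive genes it was −0.10 with anti-CD40 and −1.33 with PBS. Set the other way round, anti-CD40 minus PBS had a median of 0.16 under persistent antigen and 1.62 under transient antigen for the negative genes, and of −0.01 and −1.19 for the positive genes.

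**Figure D1:**
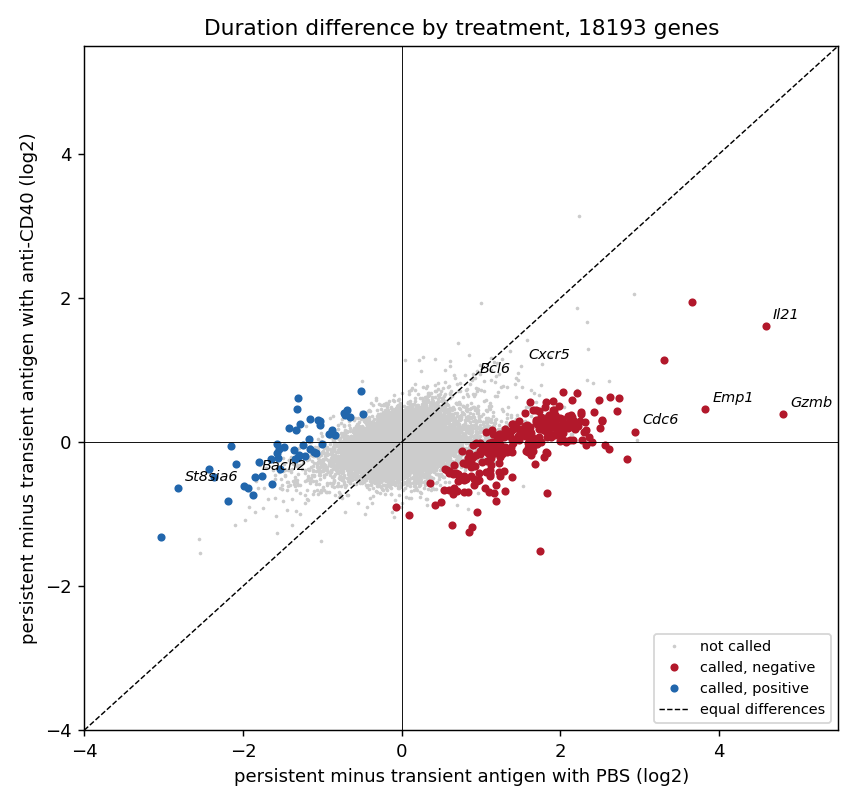
Persistent minus transient difference (log2) of 18193 genes with PBS on the x axis and with anti-CD40 on the y axis, from the limma fit with the replicate block; red points are the 276 negative and blue points the 50 positive calls, and the dashed line marks equal differences. Most called genes lie near 0 on the y axis and well away from 0 on the x axis, while Bcl6 and Cxcr5 lie near the dashed line.

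Effector genes gave the largest single value. Gzmb encodes granzyme B, a protease of cytotoxic granules. Its log2 intensity was 9.32, 7.72 and 9.29 under persistent antigen and 8.98 and 7.15 under transient antigen with anti-CD40, against 9.64, 8.05 and 10.07 under persistent and 4.51, 4.14 and 4.71 under transient antigen with PBS. Only the 3 arrays of transient antigen with PBS were near the median probe set (4.37), and they did not overlap with any of the other 8. The difference of differences was −4.41 ± 0.44 (SE) with the block (adjusted p = 5.27e-05) and −4.08 without it (adjusted p = 0.806). It was −4.79 in replicate 1 and −3.33 in replicate 2. With log2(intensity + 16), which weighs dim values less, it was −3.67 ± 0.42 (adjusted p = 0.000728, with the block).

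Il21 encodes a cytokine of follicular helper cells that acts on B cells. It measured 9.64, 8.35 and 9.69 under persistent antigen and 8.63 and 6.36 under transient antigen with anti-CD40, against 9.20, 7.44 and 9.34 under persistent and 4.50, 4.13 and 3.59 under transient antigen with PBS. Unlike Gzmb it kept a persistent minus transient difference with anti-CD40, of 1.61 against 4.59 with PBS. The difference of differences was −2.98 ± 0.52 with the block (adjusted p = 0.00872) and lost its call without persistent PBS replicate 3 or transient anti-CD40 replicate 1. Tbx21, the gene of the Th1 factor T-bet, was at −1.71 ± 0.42 (adjusted p = 0.0408). It measured 7.62, 6.56 and 8.36 under persistent antigen and 7.75 and 6.64 under transient antigen with anti-CD40, against 7.71, 6.34 and 8.07 under persistent and 6.06, 4.67 and 6.37 under transient antigen with PBS. The Tbx21 groups overlapped across replicate numbers, and its call was lost in each of the 11 fits that left out 1 array. Ifng, which encodes interferon gamma, did not pass (−2.13 ± 0.59, adjusted p = 0.0747 with the block), with −4.34 in replicate 1 and −0.27 in replicate 2.

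Of the list of Th1 and cytotoxic effector genes 2 of 23 measured members were called negative and 0 positive with the block. Over all genes 1.52% were called negative. The list had a median of −0.52, against 0.03 over all genes. For Gzma, which encodes granzyme A, the value was −1.59 (adjusted p = 0.128 with the block).

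**Figure D2:**
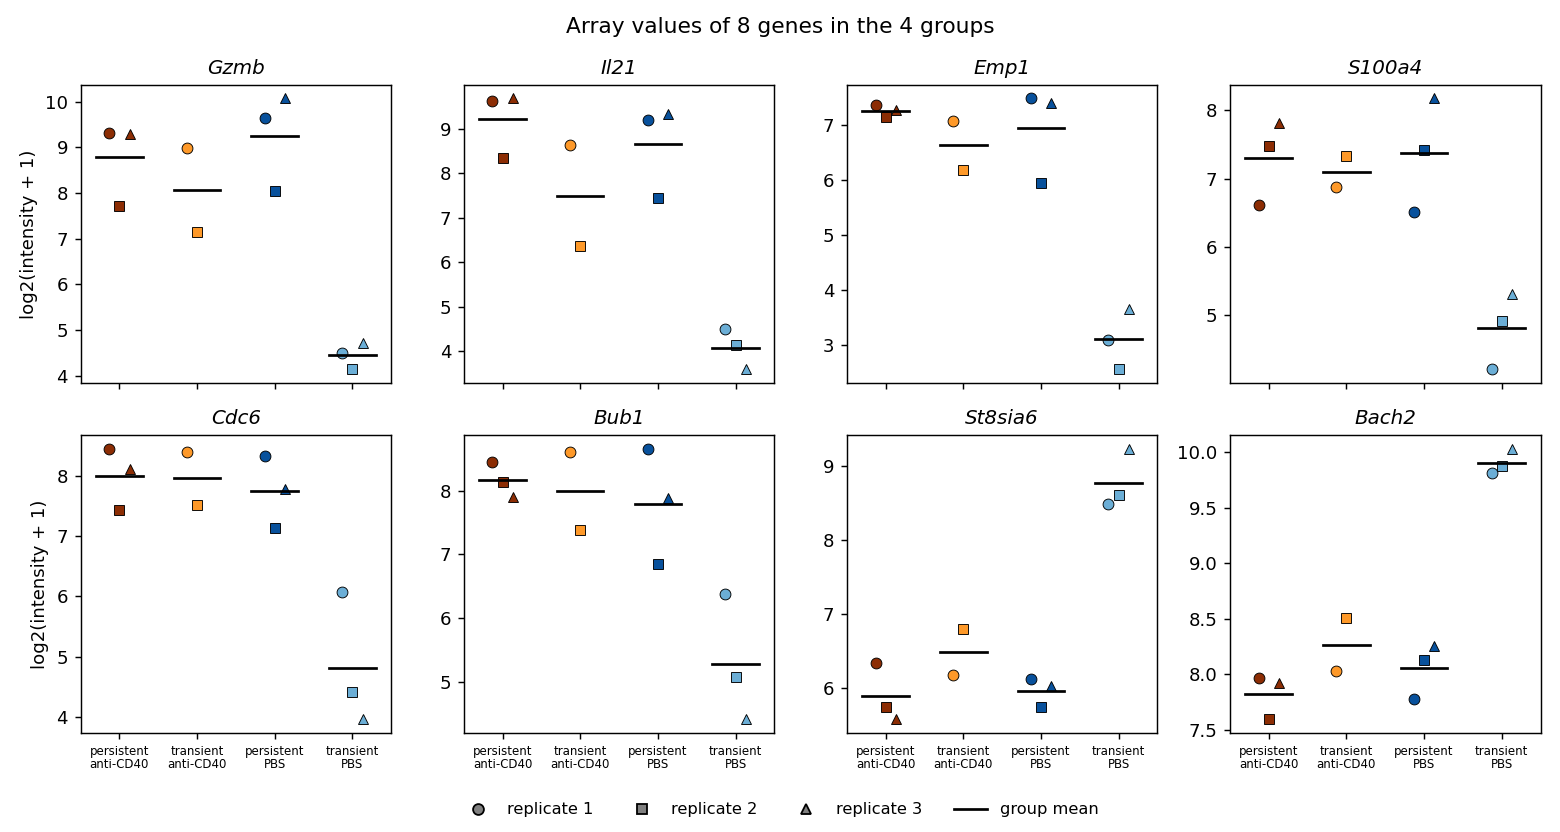
Log2(intensity + 1) of 8 genes on each array, by group from left to right (persistent then transient antigen with anti-CD40, persistent then transient antigen with PBS); symbols mark replicate numbers and bars the group means (n = 3, 2, 3 and 3). In each panel the 3 arrays of transient antigen with PBS lie apart from the other 8, below them for 6 genes and above them for St8sia6 and Bach2.

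Genes of follicular helper cells other than Il21 gave no call. Bcl6 encodes the repressor that directs this lineage, and its persistent minus transient difference was 0.86 with anti-CD40 and 0.89 with PBS. Its arrays measured 7.05, 6.47 and 7.25 under persistent antigen and 6.04 and 5.83 under transient antigen with anti-CD40, against 6.86, 6.93 and 7.11 under persistent and 5.62, 6.13 and 6.48 under transient antigen with PBS. In both treatments the persistent arrays were above the transient ones. The difference of differences was −0.03, with a 95% interval of −0.67 to 0.61. Cxcr5, the gene of the receptor that leads T cells to follicles, had a difference of differences of −0.45, with an interval of −1.05 to 0.16. Of 19 measured members of the follicular helper list 1 (Il21) was called negative, against 1.52% over all genes, and 0 positive. The list median was −0.02. Maf, which encodes a factor that drives Il21 transcription, was at −1.47 ± 0.42 and did not pass (adjusted p = 0.0901).

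Among inhibitory and costimulatory receptors the share of calls was near that of all genes (1.79%). For Pdcd1, the gene of PD-1, the interval was −0.57 to 0.53, for Lag3 −0.45 to 0.90 and for Ctla4 −0.68 to 0.64. For Icos, a costimulatory receptor gene, it was −1.07 to 0.22. Izumo1r, which encodes folate receptor 4, was the only called member of the inhibitory receptor and anergy list (1.11 ± 0.27, adjusted p = 0.037). That is 1 of 23 measured members. The costimulatory receptor list had 0 of 16 measured members called, the NF-kB pathway list 0 of 18 and the trafficking and adhesion list 0 of 23. Among 35 measured genes of a T cell panel, 4 were called with the block (Gzmb, Il21, Tbx21 and Bach2), and the other 31 ranged from −2.13 to 1.24 (smallest adjusted p = 0.0747). None of the 35 passed without the block (smallest adjusted p = 0.806).

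Genes of receptor signalling, which track recent contact with antigen, gave 1 negative call among 24 measured members, against 1.52% negative over all genes. That call was Bhlhe40, a gene of a transcription factor of activated T cells (−1.78 ± 0.41, adjusted p = 0.0318). Its value was −3.15 in replicate 1 and −0.51 in replicate 2. Nr4a1, an early gene of receptor signalling, was at 0.14 ± 0.35. Egr2, another early gene with a part in anergy, measured 8.98, 8.11 and 9.17 under persistent antigen and 7.76 and 7.15 under transient antigen with anti-CD40, against 8.86, 8.36 and 8.91 under persistent and 8.27, 8.68 and 9.03 under transient antigen with PBS. Here the group of transient antigen with anti-CD40 was the lowest, as for 20 of the 50 positive calls. Transient antigen with PBS was not the highest group for Egr2, while it was for all 50 of those calls. The Egr2 difference of differences of 1.09 ± 0.32 did not pass (adjusted p = 0.105).

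Genes for membrane and calcium-binding proteins of effector cells were among the largest negative values. Emp1 encodes an epithelial membrane protein. It measured 7.35, 7.14 and 7.27 under persistent antigen and 7.06 and 6.18 under transient antigen with anti-CD40, against 7.47, 5.94 and 7.39 under persistent and 3.10, 2.56 and 3.66 under transient antigen with PBS. The last 3 lay below the median probe set, so the size is not exact. The value was −3.37 ± 0.44 (adjusted p = 0.0012) with the block, and −2.08 ± 0.33 with log2(intensity + 16). Emp1 had 1 other probe set, whose value was of opposite sign and not called. S100a4 encodes a calcium-binding protein of motile cells. It measured 6.61, 7.48 and 7.82 under persistent antigen and 6.87 and 7.33 under transient antigen with anti-CD40, against 6.51, 7.43 and 8.17 under persistent and 4.21, 4.92 and 5.31 under transient antigen with PBS. Its value was −2.59 ± 0.29 (adjusted p = 0.000245), and the replicate numbers gave −2.57 and −2.35. Lgals3, the gene of galectin-3, was at −2.17 ± 0.37 (adjusted p = 0.00755), a call lost without transient anti-CD40 replicate 1. Plac8 (−2.31 ± 0.51), Anxa1, the annexin A1 gene (−2.01 ± 0.43), and Plek, the pleckstrin gene (−1.71 ± 0.40), were called too. Anxa1 was at −2.60 in replicate 1 and −0.60 in replicate 2, and Plek at −2.82 and −0.17. The Plac8 call held in 3 of the 11 fits that left out 1 array and was lost with replicates 1 and 2 alone. It was lost too in the fit on the mean of probe sets, though Plac8 has only 1 probe set and its own values were the same there. In all 6 of 19 measured members of the list of annexins, S100 proteins and galectins were called negative and 0 positive. Over all genes 1.52% were called negative. The list median was −0.73. That list was chosen with earlier results of these data known. It also holds genes outside these families, Emp1 and Plac8 among its called members. Ifitm3, an interferon-induced membrane protein gene, was at −3.25 ± 0.79 (adjusted p = 0.0385). Its arrays varied widely within groups, from 4.00 to 7.45 under persistent antigen with anti-CD40 and from 4.16 to 7.86 under persistent antigen with PBS. That call was lost without 6 of the 11 arrays in turn, which were persistent PBS replicate 3, persistent anti-CD40 replicate 1, transient PBS replicates 2 and 3 and both transient anti-CD40 arrays. Cd24a, which encodes a small surface glycoprotein, was at −2.53 ± 0.55 (adjusted p = 0.0232), with −4.78 in replicate 1 and −0.16 in replicate 2. Its call held in 5 of the 11 fits that left out 1 array.

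In Ctla2b, a gene related to cysteine protease propeptides, the duration difference was of opposite sign in the 2 treatments, −0.98 with anti-CD40 and 0.95 with PBS. It measured 5.68, 5.84 and 5.83 under persistent antigen and 6.78 and 6.96 under transient antigen with anti-CD40, against 6.04, 6.07 and 6.12 under persistent and 4.93, 5.89 and 4.56 under transient antigen with PBS. Both arrays of transient antigen with anti-CD40 were above all others. The value was −1.93 ± 0.35 (adjusted p = 0.00986), a call lost without persistent PBS replicate 3 or transient anti-CD40 replicate 1. Cibar1 had the same shape, with −0.67 with anti-CD40 and 0.60 with PBS (−1.27 ± 0.26, adjusted p = 0.0168), and lost its call without either of those arrays or persistent anti-CD40 replicate 1.

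The DNA replication genes formed the largest group. Of 37 measured members 28 were called negative and 0 positive with the block, against 1.52% negative over all genes. A negative value was found for 36 of the 37, against 8235 of 18193 genes. The median was −1.62, with a persistent minus transient difference of 0.18 with anti-CD40 and 1.72 with PBS. It was −1.62 within replicate 1 and −1.19 within replicate 2. Without the block 0 members passed, at a median of −1.61. Cdc6 encodes a factor that loads the replicative helicase. It measured 8.46, 7.43 and 8.12 under persistent antigen and 8.40 and 7.53 under transient antigen with anti-CD40, against 8.33, 7.14 and 7.79 under persistent and 6.08, 4.42 and 3.95 under transient antigen with PBS. The transient PBS arrays were lowest in each replicate number, and the value was −2.79 ± 0.41 (adjusted p = 0.00296). Cdt1, its partner in loading the helicase, measured 9.94, 10.53 and 9.93 under persistent antigen and 9.89 and 9.92 under transient antigen with anti-CD40, against 9.84, 10.16 and 9.92 under persistent and 7.95, 7.58 and 7.45 under transient antigen with PBS. Its value was −2.03 ± 0.28 with the block (adjusted p = 0.00271) and −2.08 without it (adjusted p = 0.39). Pole, the catalytic subunit gene of DNA polymerase epsilon, was at −2.13 ± 0.36, and Mcm5, a subunit gene of the helicase, at −2.08 ± 0.39 (adjusted p = 0.0119). The Pole call was lost without transient anti-CD40 replicate 1, and that of Mcm5 without persistent PBS replicate 3, persistent anti-CD40 replicate 1 or transient anti-CD40 replicate 2. Orc6, an origin recognition subunit gene, was at −1.83 ± 0.28 (adjusted p = 0.00386), and the calls of Orc6, Cdc6 and Cdt1 held in all 11 fits that left out 1 array.

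Other genes of chromosome copying were called outside that list. Dscc1, which encodes a loader of the sliding clamp needed for sister chromatid cohesion, had the smallest p of all genes with the block (−3.07 ± 0.29, adjusted p = 3.88e-05). It measured 6.74, 6.26 and 7.17 under persistent antigen and 7.34 and 6.38 under transient antigen with anti-CD40, against 7.15, 5.86 and 6.96 under persistent and 4.34, 3.44 and 3.70 under transient antigen with PBS. The last 3 were below the median probe set. Dna2, a nuclease and helicase gene, was at −2.36 ± 0.35, the checkpoint kinase gene Chek1 at −2.40 ± 0.43, and Hells, a chromatin remodeller gene, at −1.73 ± 0.25. Chek1 lost its call without persistent PBS replicate 3, persistent anti-CD40 replicate 1 or transient anti-CD40 replicate 2. The G1 cyclin and inhibitor list had 6 of 19 measured members called negative and 1 positive, against 1.52% and 0.275% over all genes. Its median was −0.75. The negative ones were Ccne2 (−2.70 ± 0.50), Ccne1 (−1.77 ± 0.30), Cdk2 (−1.12 ± 0.24), Cdk6 (−1.91 ± 0.40), E2f7 (adjusted p = 0.0359) and E2f8 (−1.97 ± 0.35). The E2f7 call held in 4 of the 11 fits that left out 1 array and was lost with log2(intensity + 16). It was lost too in the fit on the mean of probe sets, though E2f7 has only 1 probe set. E2f8 lost its call without persistent PBS replicate 3, and with the mean of its probe sets, where its value was −0.82 (adjusted p = 0.0804). Cyclin E and CDK2 start S phase, and E2F7 and E2F8 are repressors that are made late in G1. The positive one was Ccnd2, a D-type cyclin gene (0.98 ± 0.24, adjusted p = 0.0394). Ccne2 measured 8.48, 7.15 and 7.47 under persistent antigen and 8.71 and 7.32 under transient antigen with anti-CD40, against 8.54, 5.77 and 7.21 under persistent and 6.10, 3.62 and 3.98 under transient antigen with PBS. Here the groups overlapped, since persistent PBS replicate 2 lay below transient PBS replicate 1. Its call was lost without the same 3 arrays as that of Chek1.

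Mitosis genes gave the next largest count. Of 33 measured members 18 were called negative and 0 positive with the block, against 1.52% negative over all genes. All 33 had a negative value, against 8235 of 18193 genes. The median was −1.46, with a persistent minus transient difference of 0.29 with anti-CD40 and 1.80 with PBS. The replicate numbers gave medians of −1.44 and −1.23, and without the block 0 members passed at a median of −1.61. Bub1, a kinase gene of the spindle checkpoint, measured 8.46, 8.14 and 7.90 under persistent antigen and 8.61 and 7.39 under transient antigen with anti-CD40, against 8.67, 6.85 and 7.89 under persistent and 6.38, 5.07 and 4.40 under transient antigen with PBS. Its value was −2.22 ± 0.47 (adjusted p = 0.0224), a call lost without persistent PBS replicate 3, persistent anti-CD40 replicate 1 or either transient anti-CD40 array. Ttk, another spindle checkpoint kinase gene, was at −1.83 ± 0.26 (adjusted p = 0.00296) and the spindle kinase gene Aurka at −1.78 ± 0.27 (adjusted p = 0.00321). Ect2, needed for cytokinesis, was at −1.98 ± 0.43, and Cdk1, the mitotic kinase gene, at −1.96 ± 0.48 (adjusted p = 0.0411). The Cdk1 call held in 1 of the 11 fits that left out 1 array, that without persistent anti-CD40 replicate 2. The Ect2 call held in 6 of those 11 fits. In bulk RNA, fewer dividing cells and less of these transcripts per cell cannot be told apart.

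**Figure D3:**
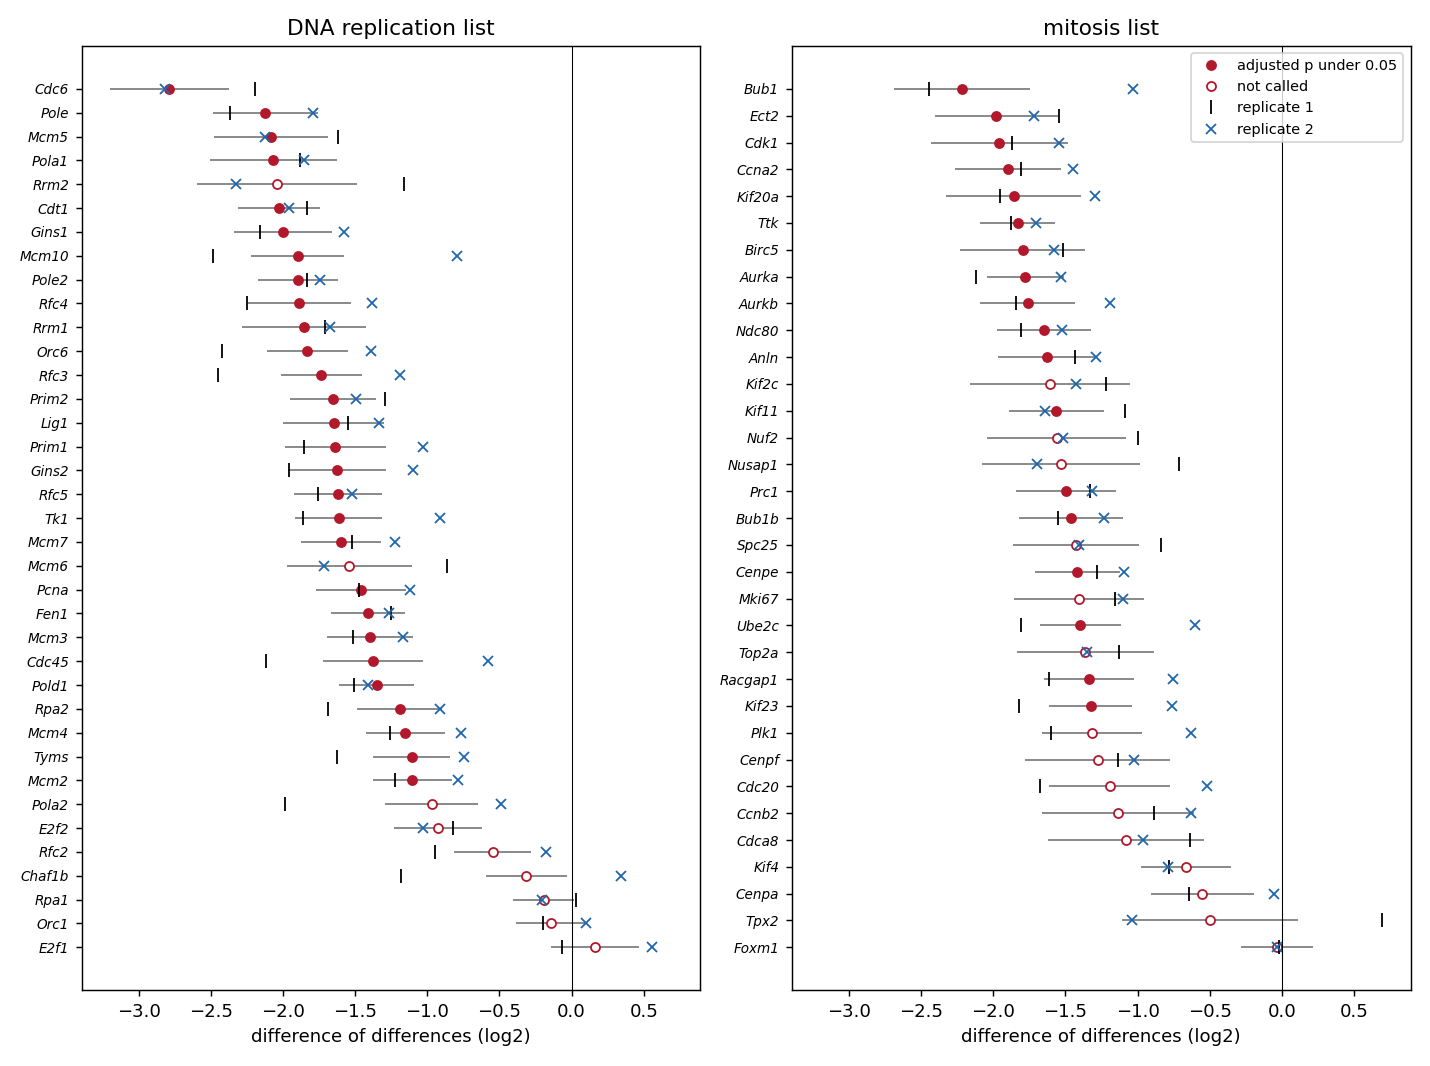
Difference of differences (log2) of each measured member of the DNA replication list (37 genes) and the mitosis list (33 genes); circles and bars give the limma estimate and its standard error with the replicate block, filled where the adjusted p is under 0.05, and ticks and crosses give the value within replicates 1 and 2. All members but E2f1 have a negative estimate, with 28 and 18 of them filled.

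Since these 2 lists moved together, promoters of their called members are shown, each a window of 300 bases around a gene's start in RefSeq (GRCm38.p6). From each list the 2 called genes with the smallest p whose promoter holds the motifs are printed, with the first listed start of a gene. Capitals in the first pair mark an E2F motif, searched as TTTCCCGC, TTTCGCGC, TTTGCCGC or TTTGGCGC on both strands. Capitals in the second pair mark the CHR element TTTGAA and the CCAAT box, on both strands, which are known from late cell cycle promoters. Matches of different motifs overlap 0 times in each of these windows.
Cdt1 promoter, chr8:122567765-122568064, plus strand: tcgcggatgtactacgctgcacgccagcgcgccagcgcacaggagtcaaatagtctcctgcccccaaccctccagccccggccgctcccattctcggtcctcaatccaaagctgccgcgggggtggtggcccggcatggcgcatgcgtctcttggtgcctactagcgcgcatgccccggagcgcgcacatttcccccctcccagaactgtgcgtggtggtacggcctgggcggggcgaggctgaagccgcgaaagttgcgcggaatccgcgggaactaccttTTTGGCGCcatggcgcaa
Pole2 promoter, chr12:69228141-69228440, minus strand: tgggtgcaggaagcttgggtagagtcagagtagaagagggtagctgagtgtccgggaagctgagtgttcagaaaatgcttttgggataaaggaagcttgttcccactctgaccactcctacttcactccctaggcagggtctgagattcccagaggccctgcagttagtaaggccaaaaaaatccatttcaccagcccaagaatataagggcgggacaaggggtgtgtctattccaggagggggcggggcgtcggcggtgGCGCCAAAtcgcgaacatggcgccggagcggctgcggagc
Ttk promoter, chr9:83834439-83834738, plus strand: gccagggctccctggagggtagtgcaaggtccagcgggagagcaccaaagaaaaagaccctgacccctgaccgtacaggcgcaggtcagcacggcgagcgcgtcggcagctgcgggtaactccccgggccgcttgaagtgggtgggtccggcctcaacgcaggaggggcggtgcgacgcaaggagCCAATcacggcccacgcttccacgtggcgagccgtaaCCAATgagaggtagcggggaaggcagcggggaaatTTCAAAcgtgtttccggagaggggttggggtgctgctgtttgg
Aurka promoter, chr2:172370521-172370820, minus strand: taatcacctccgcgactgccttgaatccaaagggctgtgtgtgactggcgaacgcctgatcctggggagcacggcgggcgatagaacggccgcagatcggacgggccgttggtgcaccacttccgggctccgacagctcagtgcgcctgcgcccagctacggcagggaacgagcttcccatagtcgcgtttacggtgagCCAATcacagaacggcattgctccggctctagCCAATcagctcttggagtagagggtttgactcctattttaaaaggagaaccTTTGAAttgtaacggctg

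A promoter was found for 31 of the 37 replication genes and 28 of the 33 mitosis genes. The E2F motif was in 12 of the 31 (38.7%) and in 1 of the 28 (3.57%), against 3.38% of the 14452 promoters of measured genes. The CHR element was in 3 of the 31 (9.68%) and in 23 of the 28 (82.1%), against 13.4%. The CCAAT box was in 18 (58.1%) and 22 (78.6%), against 38.2%. Among the 228 negative genes with a promoter 30 held the E2F motif (13.2%) and 62 the CHR element (27.2%). Among 39 positive genes with one it was 1 (2.56%) and 4 (10.3%). Of the 228 negative and 39 positive genes, 127 (55.7%) and 19 (48.7%) held the CCAAT box, against 38.2%. These are matches of letters in the printed windows and describe the lists, which were chosen by function.

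Genes that supply a dividing cell were called in smaller numbers. In the amino acid and nucleotide supply list 6 of 25 measured members were called negative and 0 positive, against 1.52% negative over all genes. The list median was −0.84 (−1.44 in replicate 1 and −0.28 in replicate 2). Odc1, the first enzyme gene of polyamine synthesis, was at −1.80 ± 0.38. It measured 10.03, 9.45 and 10.31 under persistent antigen and 11.29 and 9.62 under transient antigen with anti-CD40, against 10.08, 8.12 and 9.74 under persistent and 9.07, 7.01 and 8.55 under transient antigen with PBS. Here transient antigen with anti-CD40 held the highest array, and the groups overlapped. Shmt2, a mitochondrial one-carbon enzyme gene, was at −1.69 ± 0.33, and Slc7a5, the gene of a transporter of large neutral amino acids, at −1.49 ± 0.34. For Slc7a5 the persistent minus transient difference was of opposite sign with anti-CD40 (−0.52) and with PBS (0.97). Its call held in 3 and that of Odc1 in 4 of the 11 fits that left out 1 array, and that of Shmt2 was lost without persistent PBS replicate 3 or replicate 1 of either anti-CD40 group. Ctps, Cad and Gmps, genes of nucleotide synthesis, were at −1.44 ± 0.26, −1.48 ± 0.37 and −1.16 ± 0.28.

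In glycolysis 3 of 19 measured members were called negative and 0 positive, with a median of −0.50. Hk2 encodes the hexokinase that is induced in activated T cells (−1.86 ± 0.45, adjusted p = 0.0409). Its value was −3.38 in replicate 1 and 0.01 in replicate 2, and its call held in 3 of the 11 fits that left out 1 array. Tpi1, the triosephosphate isomerase gene, was at −1.78 ± 0.39 and Slc16a1, a lactate transporter gene, at −1.44 ± 0.27. The Tpi1 call held in 5 of the 11 fits, and that of Slc16a1 was lost without persistent PBS replicate 3 or replicate 1 of either anti-CD40 group. The cholesterol synthesis list had 2 of 24 called negative, Idi1 (−1.59 ± 0.32) and Sqle (−1.26 ± 0.29), with a median of −0.50. The endoplasmic reticulum list had 2 of 23, Hsp90b1 and Creld2, and the ribosome biogenesis list 1 of 27, Nop58. Oxidative phosphorylation had 0 of 25, and heat shock and chaperonin genes 0 of 19. The last 3 of these lists had medians of −0.53, −0.37 and −0.67. The ribosome biogenesis median was −1.28 within replicate 1 and 0.05 within replicate 2, so the replicate numbers did not share a direction. The share called negative over all genes was 1.52%.

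**Figure D4:**
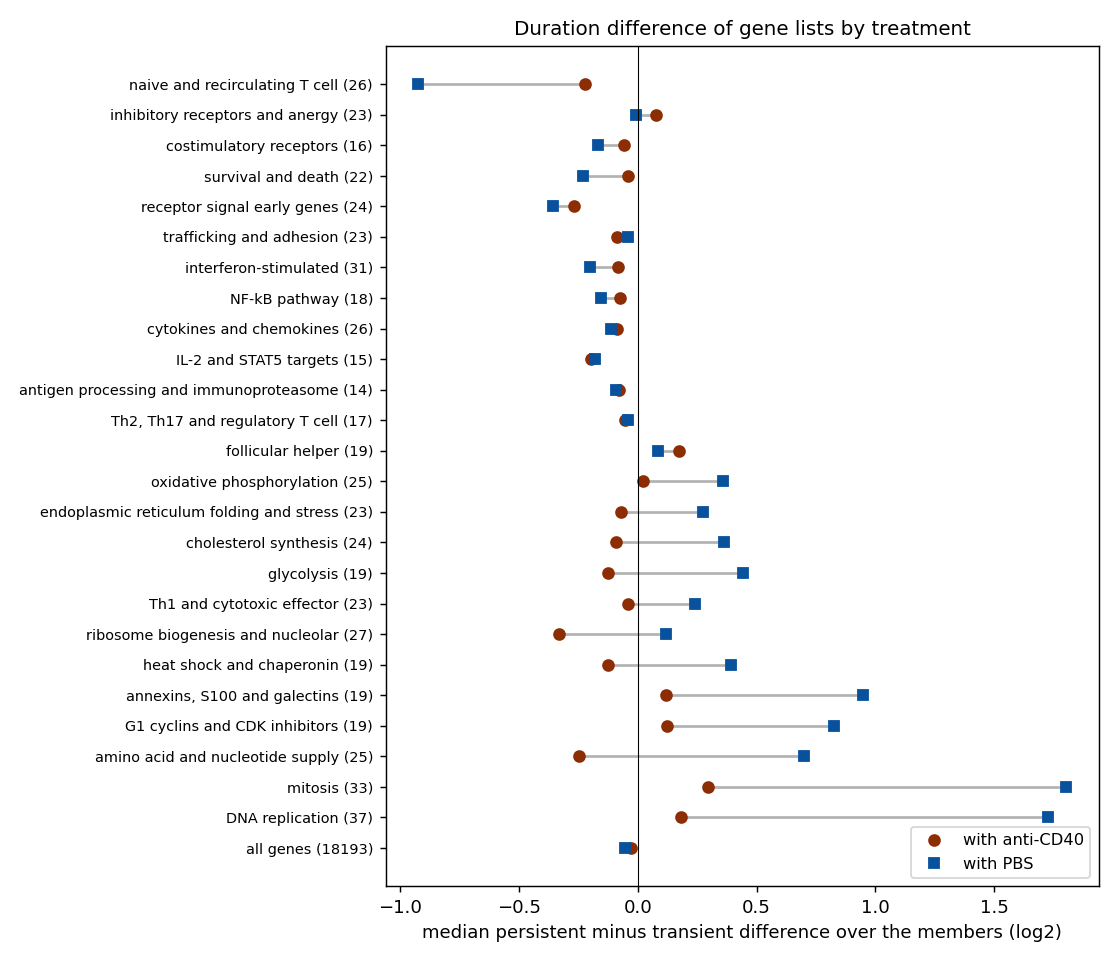
Median persistent minus transient difference (log2, limma with the replicate block) over the measured members of 25 gene lists and all genes, with anti-CD40 (circles) and with PBS (squares), ordered by the median difference of differences; the number of measured members is in brackets. The mitosis and DNA replication lists lie at 0.29 and 0.18 with anti-CD40 and at 1.80 and 1.72 with PBS, and naive T cell genes at −0.22 and −0.92.

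Positive values were found in some genes of resting T cells, listed here as naive and recirculating genes. St8sia6, which is outside that list, encodes a sialyltransferase. It measured 6.34, 5.74 and 5.57 under persistent antigen and 6.17 and 6.79 under transient antigen with anti-CD40, against 6.12, 5.74 and 6.02 under persistent and 8.49, 8.61 and 9.24 under transient antigen with PBS. The 3 arrays of the last group were the highest, and the value was 2.18 ± 0.36 (adjusted p = 0.00557) with the block and 2.22 without it (adjusted p = 0.39). The call was lost without transient anti-CD40 replicate 1. Bach2 encodes a repressor that holds back effector differentiation. It measured 7.96, 7.59 and 7.92 under persistent antigen and 8.03 and 8.51 under transient antigen with anti-CD40, against 7.78, 8.13 and 8.26 under persistent and 9.81, 9.87 and 10.03 under transient antigen with PBS. Its value was 1.36 ± 0.26 (adjusted p = 0.0119), lost without replicate 1 of either anti-CD40 group. Foxp1, a quiescence factor gene, was at 1.11 ± 0.27 (adjusted p = 0.042), and Rgcc, a cell cycle regulator gene, at 1.43 ± 0.33 (adjusted p = 0.0335). Each of these 2 calls held in 2 of the 11 fits that left out 1 array. Of the naive and recirculating list 3 of 26 measured members were called positive and 0 negative. Over all genes 0.275% were called positive. The list median was 0.61 (0.69 in replicate 1 and 0.52 in replicate 2). A negative value was found for 4 of the 26, Cxcr4 (−1.08), Satb1 (−0.25), Klf2 (−0.06) and Klf3 (−0.03). Ccr7, the lymph node homing receptor gene, was at 0.81 ± 0.31 and the IL-7 receptor gene Il7r at 0.55 ± 0.40, neither past the threshold (adjusted p = 0.269 and 0.723).

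Further positive calls came from other classes. Hbp1, which encodes a repressor of cell cycle genes, was at 1.48 ± 0.23 (adjusted p = 0.00366) and kept its call in all 11 fits that left out 1 array, though not with the mean of its probe sets. Ephx1, an epoxide hydrolase gene, was at 1.91 ± 0.34 (adjusted p = 0.00904), and Tdrp at 1.72 ± 0.32 (adjusted p = 0.0115). Tdrp kept a difference with anti-CD40 (−1.31 against −3.03 with PBS), and its highest arrays were the 3 of transient antigen with PBS (8.57, 8.03 and 9.21). Cd86 encodes a costimulatory ligand that is best known from dendritic cells and B cells. It measured 4.84, 4.73 and 4.57 under persistent antigen and 5.12 and 5.33 under transient antigen with anti-CD40, against 5.03, 4.83 and 4.65 under persistent and 6.41, 7.49 and 7.70 under transient antigen with PBS. The value was 1.88 ± 0.40 (adjusted p = 0.0228), a call held in 6 of the 11 fits that left out 1 array. Bcl2l11, which encodes the pro-death protein BIM, was at 1.41 ± 0.33 (adjusted p = 0.0335), with 2.24 in replicate 1 and 0.35 in replicate 2. It was 1 of 22 measured members of the survival and death list called positive, with 0 negative, against 0.275% positive over all genes. Abca1, a cholesterol exporter gene (1.78 ± 0.42), and Lrig1, which encodes a membrane inhibitor of growth factor receptors (1.78 ± 0.40), were called positive, as were Chst15, Fam214a, Ypel2, Adh1 and Zfp467, at 1.51 to 1.62. The calls of Abca1, Adh1, Lrig1 and Zfp467 held in 1 to 4 of the 11 fits that left out 1 array, and all 4 were lost with log2(intensity + 16). Abca1 was below the median probe set in 3 of the 4 groups and was at 1.15 (adjusted p = 0.1) on that scale, and Zfp467, below it in 2 groups, was at 0.98 (adjusted p = 0.0701). The calls of Chst15 and Ypel2 held in 5 and 7 of those 11 fits. Those of Fam214a, Ephx1 and Tdrp were lost without transient anti-CD40 replicate 1, those of Ephx1 and Tdrp also without persistent PBS replicate 3, and that of Tdrp also without persistent anti-CD40 replicate 1.

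Interferon-stimulated genes had no shared direction. Of 31 measured members 0 were called in either direction, with a median of 0.10. The median was 0.78 within replicate 1 and −0.53 within replicate 2. Cytokine and chemokine genes had 1 of 26 called (Il21), and the IL-2 and STAT5 list 1 of 15, the kinase gene Pim1 (−1.47 ± 0.34, adjusted p = 0.031). The lists of Th2, Th17 and regulatory T cell genes (17 measured) and of antigen processing genes (14 measured) had 0 called. With 1.79% called over all genes, counts of 0 or 1 in lists of this size do not set these classes apart.

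Markers of the sorted cells and of other cells were set beside these values. The 8 measured markers of CD4 T cells were above the median probe set in all 4 groups, 0 of 8 had a negative value, and their median was 0.39. Their summed intensity was 7181 to 9184 under persistent antigen and 7381 to 8016 under transient antigen with anti-CD40, against 7767 to 8996 under persistent and 9237 to 10393 under transient antigen with PBS. The 9 measured B cell markers summed to 366 to 457 and 356 to 380 under persistent and transient antigen with anti-CD40, against 348 to 475 and 255 to 315 with PBS. The 5 plasma cell markers summed to 531 to 638 and 534 to 589, against 446 to 536 and 347 to 369. The 5 NK cell markers summed to 180 to 751 and 145 to 161, against 193 to 918 and 101 to 147, with the 751 and 918 on replicate 3 arrays. The sums of these 3 lists had their lowest median under transient antigen with PBS, where the called negative genes were lowest, and their part in the result was not tested. Each sum was led by 1 gene, with an exception for NK cells. For plasma cells it was Xbp1, whose value was −0.64 (adjusted p = 0.215), while the other 4 markers had positive values of 0.14 to 0.65. For B cells it was Cd22 (−0.79, adjusted p = 0.245), and 6 of the 9 markers had positive values. For NK cells it was Gzma (−1.59, adjusted p = 0.128), which also stands in the cytotoxic list. Under transient antigen with PBS, though, the group mean of Gzma was 5.13 and that of Eomes 5.18. All 5 NK cell markers had negative values, those other than Gzma at −0.55 to −0.10. Of the 9 B cell markers 6 or 7 were below the median probe set in each group, such as Cd79a and Pax5 (3.39 to 4.05). Cd22 (7.14 to 8.00) and Ms4a1 (5.41 to 6.09) were above it in all 4 groups. None of the B cell markers was called. The 13 markers of dendritic cells and macrophages summed to 427 to 595 and 385 to 480 with anti-CD40, against 432 to 563 and 385 to 517 with PBS, and their median was lowest under transient antigen with PBS too (395, against 432 to 555 in the other groups). For the CD8 T cell, granulocyte, erythrocyte and stroma lists the median sum was highest under transient antigen with PBS. It was 52.2, 105.4, 53.4 and 94.2 there. The other groups had 42.7 to 45.0, 86.8 to 89.8, 49.7 to 52.5 and 88.6 to 91.9. Of 49 markers of other cell types 0 were called.

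**Figure D5:**
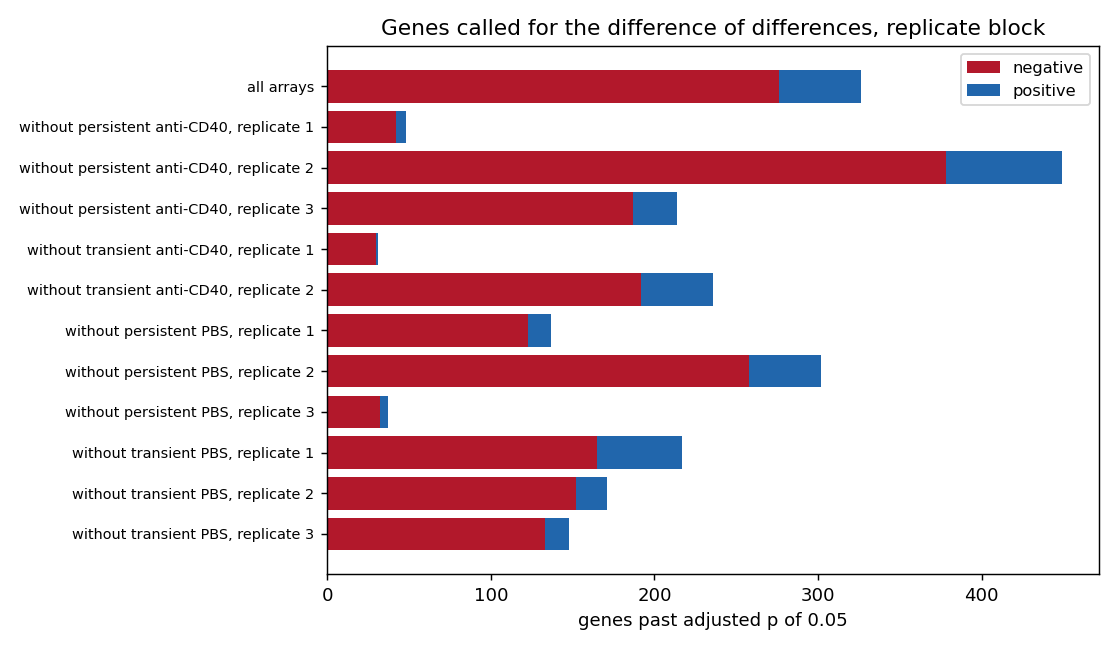
Genes past an adjusted p of 0.05 for the difference of differences in the limma fit with the replicate block, with all arrays and with each of the 11 arrays left out; red is the negative and blue the positive part of each bar. The count is 326 with all arrays and lies between 31 and 449 otherwise, and negative genes are the larger part of each bar.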

How the data were processed

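CD4+ T cells on 16 Affymetrix arrays were used, 11 of them in the 4 groups compared. The deposited values are probe set intensities on a linear scale, for which the submitters' processing notes name RMA; further settings of the authors are not given in the sources used here. Of 45101 probe sets, 34945 had 1 gene symbol, 932 had several and 9160 were unnamed, and 64 were array controls. The probe set with the highest mean over 16 arrays stood for each of 18193 genes. Values were taken as log2(intensity + 1) and fitted in limma 3.58.1 (R 4.3.3) with 6 group means and an intensity trend, with Benjamini-Hochberg adjustment and a threshold of 0.05. The main model had no block, and a model with the replicate number as a block was set beside it. Whether the numbers pair the arrays was judged from the data. Deviations from group means correlated at 0.481 to 0.806 in all 36 pairs of the same number. The 70 other pairs had a median of −0.525 and a highest value of 0.598, so the ranges overlapped. Deviations within a group cancel, so the negative median is in part built in. The labels state no shared source. Precision is limited by the number of arrays. The script was tested on simulated data.

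Named genes were the 10 with the smallest p without the block, the 12 largest blocked calls in each direction with the same sign in replicates 1 and 2, called panel genes, and the 3 largest called members of each list with 3 or more. Clone, predicted, receptor-segment and sex-linked names were left out. Other called list members are named where counts are small. Members and lists were chosen with earlier results of these data known. Alternatives were another block, sample set, filter, probe set rule, offset, scaling, array weights and leaving out each array.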

Additional observations from a re-analysis of the deposited data

Results flagged for a closer look

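The persistent minus transient difference differed between anti-CD40 and PBS for 326 genes by limma's test of the difference itself with the replicate number as a block, and for 0 genes without the block. Of the 326, 276 were negative and 50 positive.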

How the results depend on the processing

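Without a block the count of genes was 0, and it became 326 with the replicate block, 479 with a block for runs of array numbers, 46 with the replicate number as a random effect and 5 with array weights. Leaving out 1 array without the block gave 0 to 2 genes. It stayed 0 with the 11 arrays alone, replicates 1 and 2 alone, no intensity trend, dim genes left out, the mean of probe sets, log2(intensity + 16) and cyclic loess. With the replicate block the count was 523 from the 11 arrays alone, 125 from replicates 1 and 2 alone, 890 with array weights, and 31 to 449 with 1 array left out (31 without transient anti-CD40 replicate 1, 37, 137 without persistent PBS replicates 3 and 1, 48, 214 without persistent anti-CD40 replicates 1 and 3, and 148, 171, 217 without transient PBS replicates 3, 2 and 1). It was 326 with no intensity trend, 409 with dim genes left out, 232 with the mean of probe sets, 296 with log2(intensity + 16) and 409 with cyclic loess. The cause of these moves was not tested. In each of these blocked fits all of the 326 genes that were tested kept their sign (323 of 323 with dim genes left out). Those fits share arrays with the fit that picked the genes, so this adds no support to the calls. Of the 47 named genes, 9 were called in the 8 other fits with the fixed replicate block, in the 11 that left out 1 array and with the random effect: Cdc6, Cdt1, Dna2, Dscc1, Emp1, Gzmb, Hells, Orc6 and S100a4. Without transient anti-CD40 replicate 1, 33 of the 47 lost their call, without persistent PBS replicate 3 it was 32, and without persistent anti-CD40 replicate 1 it was 29. Of the 47, 28 lost their call with the random effect, 19 with replicates 1 and 2 alone and 18 with the mean of probe sets. Among these 18 were genes with only 1 probe set, such as Plac8 and E2f7, whose own values did not change. Other probe sets were present for 28 of the 47 genes. For 5 of them, Abca1, E2f8, Emp1, Mcm5 and Ypel2, at least 1 had a value of opposite sign, and 0 of the 5 had such a probe set called. With log2(intensity + 16) and the block, Abca1, Adh1, Cd24a, E2f7, Hk2, Ifitm3, Lrig1, Rgcc and Zfp467 lost their call. Dim levels limit the size of Emp1, Dscc1, Il21, Lgals3, Cd24a and Ifitm3, whose mean under transient antigen with PBS lay below the median probe set, and of Abca1 and Zfp467, dim in other groups.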
